A study of Mus musculus with 12 samples.

Results

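The synapse fraction of the mouse hippocampus was compared between the arm L and the arm C across 3 days. The 6 libraries of this fraction, of 12 in the series, were taken by their titles: 1 library of each arm on days 1, 6 and 20, so that each day gives a pair. Both arms are hippocampus of the strain C57BL6/J. In the synapse tables the headings of day 6 name C as control and L as learned, and those of the other days give a C or a T followed by the day. The homogenate headings name L as training and C as control. The training, the age and sex of the mice, the preparation of the fraction and the number of animals per library are not stated in the sources used here. The p-values therefore measure the spread between these libraries alone, which may be technical. In the synapse fit, with 1 library per arm and day, this spread is how far the difference between arms varies from day to day. An arm difference that changes with the day counts there as spread. The other 6 libraries are whole homogenates of day 6, 3 of each arm, and serve here as a second readout of the same contrast. Raw read counts were joined over 14389 genes that stand in the tables of all 3 days, and 9054 of them with a mean of at least 10 CPM, the count scaled to the library's total, were tested.

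Synapses are built from a presynaptic terminal, which releases transmitter from vesicles, and a postsynaptic side whose receptors are held by scaffold proteins, and adhesion molecules join the 2 sides. Some mRNAs are carried into dendrites and axons and translated there, and Arc is the textbook case. Immediate early genes are transcribed within minutes of neuronal activity and are used as its marker. A hippocampal synapse preparation usually also holds membranes of astrocytes, myelin and vessels.

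The libraries held 1.06e+07 to 1.53e+07 counts, and 3 counts, the most that a count of 0 allows, correspond to 0.197 to 0.283 CPM. Molecular identifiers were not used, so this limit and the intervals below describe counting error alone. Neuronal transcripts were abundant in every synapse library, with Slc17a7, the vesicular transporter of excitatory neurons, at 978 to 1670 scaled CPM and Camk2a at 3134 to 4131. The myelin gene Mbp stood at 2100 to 9077 and the choroid plexus gene Ttr, which encodes a carrier of thyroid hormone, at 3245 to 4588, so transcripts of other cells were present too. The day 6 libraries stood apart from the other 4: log2 CPM correlated at 0.861 to 0.888 between day 6 and the other days, at 0.942 within day 6 and at 0.992 to 0.993 among the libraries of days 1 and 20. Day 6 cannot be told apart from the word Input that its column headings alone carry among the synapse tables. Named genes and the main gene lists are therefore also given without the day 6 pair. Levels below are CPM scaled with edgeR's TMM factors, and a ratio is the log2 ratio of L to C within a day, with an exact Clopper-Pearson 95% interval.

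No gene passed in the comparison of L with C over the 3 days. With edgeR's quasi-likelihood test and day as a block, 0 of 9054 genes (0%) had an adjusted p under 0.05, the smallest adjusted p being 0.843. At an unadjusted p under 0.05 there were 211 genes (2.33%), with 51 higher in L (0.563%) and 160 lower (1.77%). DESeq2 and limma-voom called 0 genes as well, with 233 and 295 at an unadjusted p under 0.05. The split of 51 and 160 depended on the scaling: it was 30 higher and 233 lower with RLE factors, and 92 higher and 69 lower with library totals alone. The fitted difference was above 0 for 46.7% of genes and below 0 for 53.3%. L lay above C on all 3 days for 13.2% of genes and below C on all 3 days for 15.7%, that is 1194 and 1421 genes. With library totals alone these became 1610 and 954 genes. All 3 L libraries lay above all 3 C libraries for 2.88% of genes and below them for 1.7%. These shares are the background against which the counts of gene groups below are read.

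Over all genes tested, the ratios of single genes were at most weakly related between days. Across the 9054 genes the day 1 and day 20 ratios had a Pearson r of 0.02 and a Spearman rho of 0.10, and 55.4% of genes had the same sign on both days. Days 1 and 6 gave an r of -0.01 with 51.7% of the same sign, and days 6 and 20 an r of 0.02 with 50.7%. These are descriptions over genes, which share the libraries of each day. The median absolute deviation of the ratios was 0.110 on day 1, 0.299 on day 6 and 0.106 on day 20. At least 2-fold differences were seen for 11 genes on day 1 (0.121%), 860 on day 6 (9.5%) and 5 on day 20 (0.0552%). Past 2-fold in the same direction on 2 days there were 2 genes for days 1 and 6, 1 for days 1 and 20 and 0 for days 6 and 20.

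**Figure D1:**
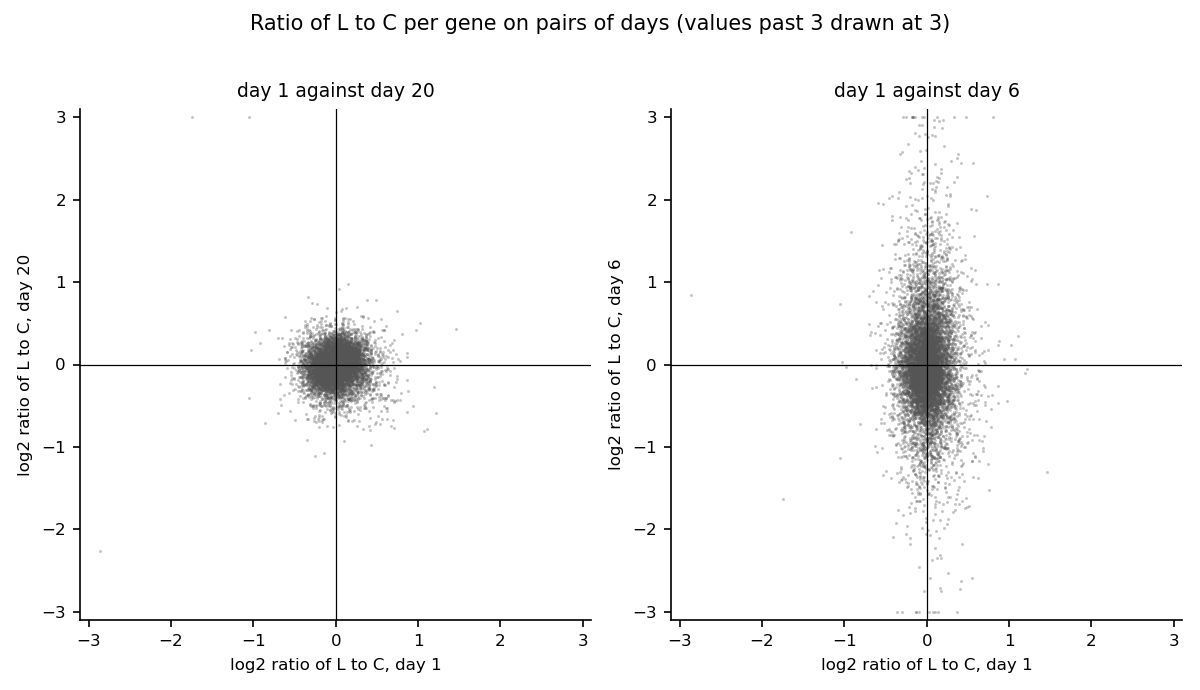
Each point is 1 of 9054 genes, with its log2 ratio of L to C on day 1 on the x axis and on day 20 (left) or day 6 (right) on the y axis; values past 3 are drawn at 3. The cloud of days 1 and 20 is round, with an r of 0.02, and the cloud with day 6 is stretched along the day 6 axis, where 860 genes passed 2-fold against 11 on day 1.

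Among genes with L below C on all 3 days, the lowest p-values were those of Tecr, Tmem151a, Pvrl1, Nfasc, Chst1, Cadm3, Faim2, Nrsn2, Celsr2, Endod1, Slc32a1 and Sdc3. These 12 genes had fitted log2 differences of -0.43 to -0.21 and an adjusted p of 0.843 each in edgeR, so none passed, and as they were chosen for their direction and p their values are a description. Several act at the cell surface. Pvrl1 encodes the adhesion molecule nectin-1, Nfasc the neurofascin of axon initial segments and nodes, Cadm3 a synaptic cell adhesion molecule, Celsr2 a large cadherin of planar cell polarity and Sdc3 the heparan sulfate proteoglycan syndecan-3.

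Tmem151a (ENSMUSG00000061451, mm10 chromosome 19, 5070859 to 5085531, minus strand) stood at 155, 180 and 158 scaled CPM in C on days 1, 6 and 20 and at 130, 142 and 120 in L. It was the gene of these 12 whose arms did not overlap, with every L library below every C library, and its fitted log2 difference was -0.33 (SE 0.08, edgeR adjusted p = 0.843). Cadm3 (chromosome 1, 173333258 to 173367695, minus strand) stood at 503, 1676 and 492 in C and at 436, 1422 and 431 in L. Each day's L library was below its C library by a similar amount, with ratios of -0.21, -0.24 and -0.19, while the arms overlapped because day 6 lay far above the other days in both. Nfasc showed the same picture, with 672, 1371 and 680 in C and 563, 1168 and 597 in L and ratios of -0.26, -0.23 and -0.19.

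Slc32a1, the vesicular GABA transporter that fills inhibitory vesicles (chromosome 2, 158610767 to 158615748, plus strand), stood at 79.9, 112 and 71 in C and at 68.7, 79.3 and 54.5 in L. L was lower on each day, with ratios of -0.22, -0.50 and -0.38, and the arms overlapped. Tecr, the reductase that ends each cycle of fatty acid elongation, stood at 226, 482 and 216 in C and at 188, 377 and 181 in L. Its fitted difference of -0.29 (SE 0.07) had the smallest p of the 12. Pvrl1 had ratios of -0.30 on day 1, -0.67 on day 6 and -0.30 on day 20, so that its fitted difference of -0.43 (SE 0.10) leaned on day 6.

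Among genes with L above C on all 3 days, the lowest p-values were those of 12 genes, Ptprb, Myef2, Hdac2, Lcor, Eea1, Gpr116, Abcb1a, Nub1, D14Abb1e, Cxxc5, Dynll1 and Pls3. They had fitted differences of 0.24 to 0.52 and, again, an adjusted p of 0.843 each in edgeR. Ptprb, Gpr116 and Abcb1a are known from the vessel wall: Ptprb encodes the vascular endothelial receptor phosphatase, Gpr116 an adhesion receptor of endothelium and lung, and Abcb1a the efflux pump of the blood-brain barrier. Hdac2 encodes a histone deacetylase, Lcor a nuclear receptor corepressor, Eea1 a tether of early endosomes, Dynll1 a dynein light chain and Pls3 an actin-bundling plastin.

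Ptprb (ENSMUSG00000020154, chromosome 10, 116275523 to 116389535, plus strand) stood at 73.1, 32.4 and 89.4 scaled CPM in C and at 102, 48.2 and 108 in L. L was higher on each day, with ratios of 0.48, 0.57 and 0.27, and the arms overlapped. Abcb1a stood at 38.3, 16.1 and 46.6 in C and at 55.6, 26.4 and 52.3 in L, and the ratio of 0.16 on day 20 was the smallest of its 3, with an interval that just left out 0. Myef2, a repressor of the myelin basic protein gene, stood at 74.2, 69.1 and 80.2 in C and at 88.8, 99 and 95.3 in L. Its arms did not overlap, and its ratios were 0.26, 0.52 and 0.25. Nub1, which limits the ubiquitin-like protein NEDD8, stood at 55.8, 32.2 and 55 in C and at 65.4, 65.9 and 69.4 in L; the arms did not overlap, and most of its fitted difference of 0.52 (SE 0.17) came from the day 6 ratio of 1.03.

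**Figure D2:**
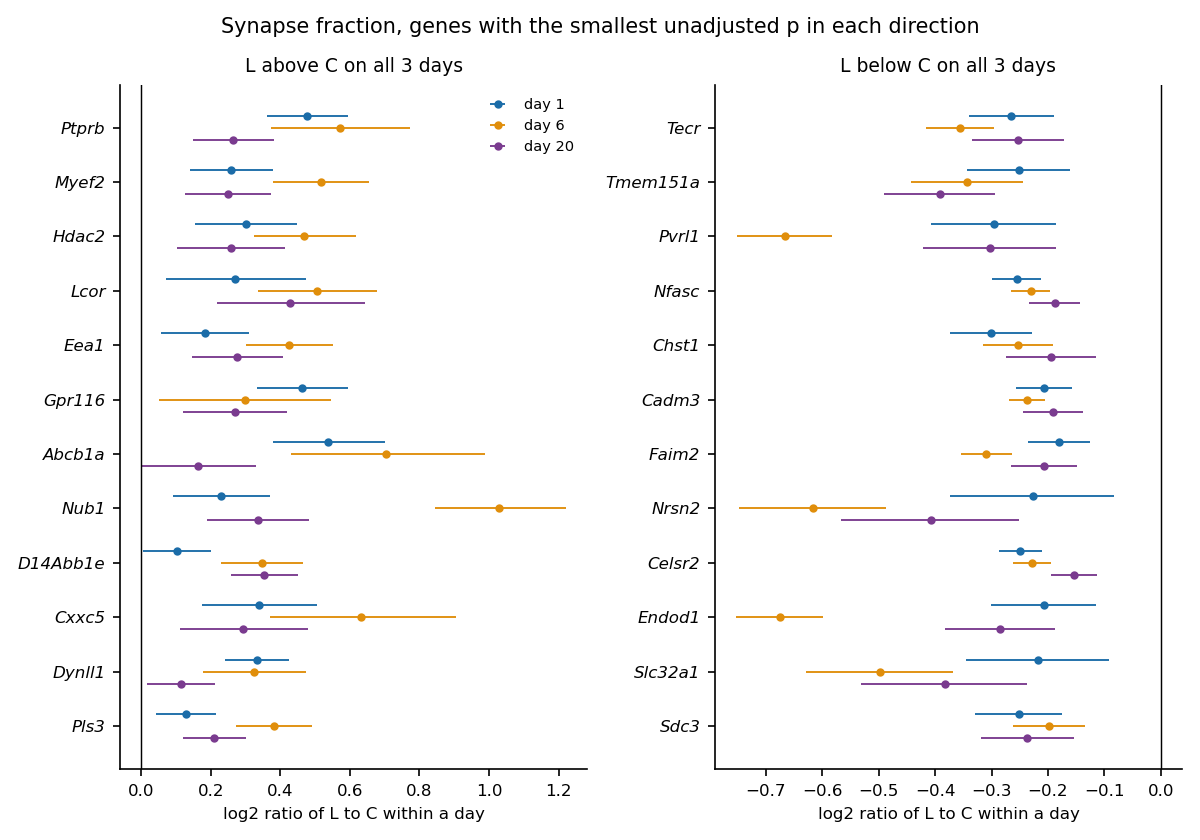
The log2 ratio of L to C within each day (x axis) is shown for the 12 genes above C on all 3 days (left) and the 12 genes below C (right) that have the lowest p-values; points are ratios, bars exact 95% intervals for counting error and colours the days. The Cadm3 ratios of -0.21, -0.24 and -0.19 lie close together, and those of Nub1 spread from 0.23 to 1.03.

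With the day 6 pair left out, the directions of these genes are fixed by their choice, and the smallest adjusted p among them was 0.702 in edgeR. The homogenates, which the choice did not use, were read for the same directions. Of the 12 genes lower in the synapse fraction, 3 were also lower in the homogenates (background 49.8% of genes), with a median of 0.05, and of the 12 higher genes 5 were also higher (background 50.2%), with a median of -0.04. Nfasc stood at 0.15 (SE 0.09) and Ptprb at -0.03 (SE 0.07) there, while Lcor stood at 0.25 (SE 0.08) and Eea1 at 0.23 (SE 0.10), the same sign as in the synapse fraction. These were 2 of the 3 genes of the 24 with an unadjusted p under 0.05 in the homogenates, the other being Cxxc5 at -0.26 (SE 0.11), and their edgeR adjusted p-values were 0.486, 0.552 and 0.554. In the homogenates 0 of 13647 genes (0%) passed in edgeR, with 1217 at an unadjusted p under 0.05, while DESeq2 called 13. In edgeR's test of the difference between fractions 0 of 9054 (0%) passed, with 542 at an unadjusted p under 0.05, the smallest adjusted p among genes named here being 0.765.

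The list of synaptic adhesion molecules, which join the pre- and postsynaptic membranes, had 30 of 30 members tested, and 0 passed. Its fitted differences were below 0 for 26 of 30 (background 53.3%), with a median of -0.09 against -0.01 for all genes, and 18 of 30 (60%) lay below C on all 3 days, against 15.7% of all genes. With days 1 and 20 alone 23 of 30 were below on both days, against 27.7% of all genes, and 7 were lower at an unadjusted p under 0.05, against a background of 4.16%. Among the 18 were Nrxn2, Nrxn3, Nlgn3, Lrrtm1, Lrrtm2, Cadm1, Cadm3, Cdh13, Ncam1, Ncam2, Ephb2, Lrfn1, Slitrk1, Slitrk3, Ptprs, Ptprd and Ptprf, and Lrrtm4 was the member above on all 3 days.

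Nrxn2, which encodes a presynaptic partner of neuroligins, stood at 440, 423 and 422 scaled CPM in C and at 371, 421 and 364 in L, so the arms differed on days 1 and 20 and met on day 6. Ptprs, a presynaptic receptor phosphatase that binds proteoglycans, stood at 992, 1524 and 914 in C and at 813, 1419 and 831 in L, with ratios of -0.29, -0.10 and -0.14. The neural cell adhesion molecule Ncam1 stood at 596, 1863 and 577 in C and at 546, 1505 and 539 in L. In both, each day's L library lay below its C library and the arms overlapped across days. Nlgn2, the neuroligin of inhibitory synapses, differed in sign between days, with ratios of -0.31 and -0.29 on days 1 and 20 and 0.24 on day 6.

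Abundant genes as a whole leaned the same way. Of 982 genes with a mean of at least 200 scaled CPM, 33.2% lay below C on all 3 days and 5.7% above, with a median difference of -0.07, whereas among 2164 genes under 20 CPM 11.5% lay below and 14.1% above. Of the adhesion list 17 members were at 200 CPM or more, and 11 of these lay below on all 3 days. The count also rested on the scaling: with library totals in place of TMM factors 7 of 30 (23.3%) lay below on all 3 days, against 10.5% of all genes, and the list's median was -0.04, beside 0.03 for all genes. With RLE factors it was 19 of 30 (63.3%) against 18.8%. In the homogenates the list had no lean, with 16 of 30 above 0 (background 50.2%) and a median of 0.00.

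Inhibitory synapse genes, GABA receptors and the proteins that make, carry and anchor them, had 20 of 20 members tested. Of these 17 had a fitted difference below 0, the median was -0.11, and 11 of 20 (55%) lay below C on all 3 days, against 15.7% of all genes. Among members at 200 CPM or more, 7 of 10 lay below on all 3 days, against 33.2% of all genes at that level. With RLE factors the count below on all 3 days was 15 of 20 and with library totals 6 of 20 (30%), against 18.8% and 10.5% of all genes. Among the 11 were the GABA-A subunits Gabra4, Gabra5, Gabrb2, Gabrg1 and Gabrg3, the GABA-B subunit Gabbr1, the glutamate decarboxylase Gad2 and the vesicular transporter Slc32a1. Such counts go by sign alone. Gabra4 had ratios of -0.107, -0.004 and -0.008, and its intervals on days 6 and 20 held 0. Gabrg3 stood at 44.2, 193 and 40.5 scaled CPM in C and at 39.6, 117 and 33.4 in L. Its ratios were -0.16, -0.72 and -0.28, and its day 1 interval held 0. L was lower on each day and the arms overlapped, day 6 lying above the other days in both. Gad1, the other decarboxylase, lay above C on all 3 days, with ratios of 0.01, 0.14 and 0.08. In the homogenates 15 of 20 members were below 0 (background 49.8%), with a median of -0.09, although Slc32a1 stood at 0.04 (SE 0.20). Without the day 6 pair 13 of 20 (65%) lay below on both days, against 27.7% of all genes. Many of these receptor subunits act in principal neurons that receive inhibition, while Gad1, Gad2 and Slc32a1 belong to the interneurons that send it. Markers of interneurons as a class had 3 of 18 below on all 3 days (16.7%, against 15.7% of all genes), Gad2 and Slc32a1 among them. Above on all 3 days were 2 (11.1%, against 13.2%), Gad1 among them, so both counts lay near the shares of all genes. Gad1, Gad2 and Slc32a1 stand in both lists. The summed level of the interneuron markers was 1858, 5127 and 1904 in C and 1830, 4623 and 1771 in L. The part of interneuron content in these values was not tested, and in bulk samples fewer cells and less RNA per cell cannot be told apart.

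Presynaptic vesicle and release genes were split. Of 40 tested, 16 (40%) lay below C on all 3 days, against 15.7% of all genes. With library totals alone it was 10 (25%), against 10.5%. On both day 1 and day 20, 25 (62.5%) lay below, against 27.7% of all genes. Among members at 200 CPM or more, 12 of 26 lay below on all 3 days, against 33.2% of all genes at that level. The 16 included the calcium sensors Syt1 and Syt2, Syp, Syn1 and all of Sv2a, Sv2b and Sv2c. Above C on all 3 days lay 6 (15%, against 13.2% of all genes), namely Snap25, Rab3c, Unc13b, Nsf, Erc2 and Synj1. Syt1 stood at 1932, 7756 and 1971 in C and at 1722, 6705 and 1755 in L, with ratios of -0.17, -0.21 and -0.17. Erc2, a scaffold of the active zone where vesicles fuse, stood at 182, 169 and 181 in C and at 198, 213 and 206 in L. Every L library of Erc2 lay above every C library, and its fitted difference was 0.22 (SE 0.08, edgeR adjusted p = 0.843). On the receiving side, 8 of 27 glutamate receptor subunits (29.6%, against 15.7% of all genes) lay below on all 3 days. Only 1 (3.7%, against 13.2%) lay above, and the median was -0.05. On both day 1 and day 20, 16 of 27 (59.3%) lay below, against 27.7% of all genes. At 200 CPM or more, 5 of 11 subunits lay below on all 3 days, against 33.2% of all genes at that level. With library totals alone 5 of 27 (18.5%) lay below on all 3 days, against 10.5% of all genes, and the median was -0.0044. Among the 8, the obligatory NMDA receptor subunit Grin1 had ratios of -0.17, -0.23 and -0.04. The AMPA receptor auxiliary subunit Cacng3 had ratios of -0.10, -0.57 and -0.54.

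**Figure D3:**
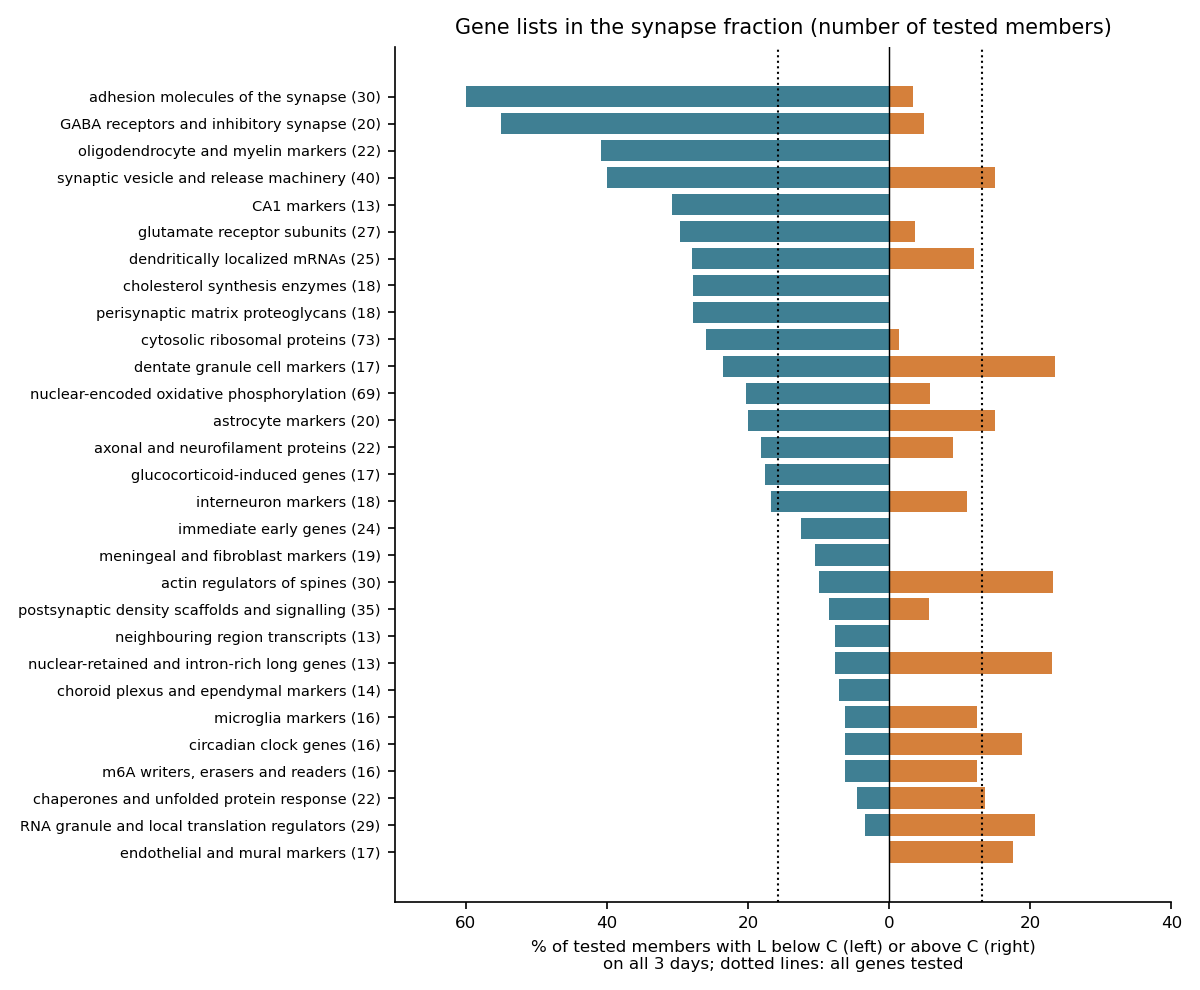
Bars give the share of tested members (in %) with L below C (left) or above C (right) on all 3 days, for the lists with at least 10 tested members, whose number is in brackets; dotted lines mark the share of all genes tested, 15.7% and 13.2%. Adhesion molecules at 60% and inhibitory synapse genes at 55% reach farthest to the left.

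Most myelin and oligodendrocyte genes leaned lower in L as well, with 21 of 22 fitted differences below 0 (background 53.3%) and a median of -0.15. On all 3 days 9 of 22 (40.9%) lay below C, against 15.7% of all genes. The day 6 pair carried most of this lean: the medians by day were -0.06, -0.36 and -0.03, and without day 6 the median was -0.07, with 13 of 22 below 0. The summed level of the list was 15404, 13771 and 14271 in C and 15877, 10621 and 14658 in L. The sum was therefore higher in L on days 1 and 20. Mbp had ratios of -0.03, -0.29 and 0.17. In the homogenates 17 of 22 of these genes were above 0 (background 50.2%), with a median of 0.15. Cytosolic ribosomal protein genes were below 0 for 60 of 73, with a median of -0.08 and 19 of 73 below on all 3 days, and also for 60 of 73 in the homogenates (background 49.8%), with a median of -0.14. In the synapse fraction their day medians were -0.07, -0.22 and 0.03, so that day 20 did not share the lean. On days 1 and 20 their summed level was 9416 and 8686 in C and 8990 and 8969 in L.

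Some groups lay higher in L on days 1 and 20 and lower on day 6. On single days L lay above C for 50% of genes on day 1 and 50% on day 20 and for 45.9% on day 6, and below for 50%, 50% and 54.1%. Of 22 tested chaperone and unfolded protein response genes, which fold proteins in the cytosol and the endoplasmic reticulum, 18 lay above C on both day 1 and day 20, against 27.7% of all genes, and 18 lay below on day 6. With days 1 and 20 alone 8 of 22 were higher at an unadjusted p under 0.05 (background 2.93%) and 0 passed. The endoplasmic reticulum chaperone Hspa5 stood at 449, 1814 and 540 scaled CPM in C and at 535, 1369 and 643 in L. L was higher on days 1 and 20, with a ratio of 0.25 on each, and lower on day 6 at -0.41, where both libraries lay far above those of the other days. Pdia6, which forms disulfide bonds, had ratios of 0.35, -0.24 and 0.15, and in the homogenates of day 6 the list had 18 of 22 above 0, with a median of 0.18.

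Endothelial and mural genes had the largest day 1 median of the lists, at 0.38, with 15 of 17 above C on day 1, 13 of 17 below on day 6 (median -0.37) and 15 of 17 above on day 20 (median 0.13). On both day 1 and day 20, 13 of 17 (76.5%) lay above, against 27.7% of all genes. Without day 6, 10 of 17 were higher at an unadjusted p under 0.05 (background 2.93%). The vascular growth factor receptor Flt1, named after its values were seen, stood at 90.9, 40.4 and 93.4 in C and at 136, 18.5 and 125 in L, and without day 6 its difference was 0.50 (SE 0.07, edgeR adjusted p = 0.598). The summed level of the list was 819, 763 and 888 in C and 1038, 585 and 969 in L. The defining markers Cldn5 and Pecam1 were above 0 in every library but low, at 1.46 to 17.4 and 5.73 to 22.6. Abcb1a is itself a member of the list. Ptprb and Gpr116, which are not members, were chosen for lying above C on all 3 days. They therefore share the list's sign on days 1 and 20 by that choice. On day 6 their ratios were 0.57 and 0.30, against the list's median of -0.37. The part of vessel content in these values was not tested. Microglia genes had the same order of days as the endothelial and mural list, with medians of 0.26, -0.23 and 0.06. On both day 1 and day 20, 9 of 16 (56.2%) lay above, against 27.7% of all genes, while P2ry13 had ratios of 0.41, 0.35 and 0.31.

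For immediate early genes the sign of the difference depended on the day. Of 40 listed, 24 passed the floor of 10 CPM. L was below C for 20 of 24 on day 1 (median -0.28), above for 14 of 24 on day 6 (median 0.14) and above for 18 of 24 on day 20 (median 0.16). The order lower on day 1 and higher on day 20 held for 17 of 24, against 22.3% of all genes, and the reverse order for 3 of 24, also against 22.3%. On day 1 the whole interval lay below 0 for 15 of 24 (background 18.3%), and on day 20 the whole interval lay above 0 for 9 of 24 (background 14.2%). Both held for 8 of 24, against 2.49% of all genes. The difference between the days has no test, since each day has 1 library per arm.

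Those 8 genes were Arc, Egr1, Egr3, Fosl2, Homer1, Junb, Nr4a3 and Sik1. Arc (ENSMUSG00000022602, chromosome 15, 74669083 to 74672570, minus strand), whose protein regulates AMPA receptor uptake, stood at 205, 87.8 and 134 scaled CPM in C and at 100, 90 and 151 in L. The C library of day 1 was the highest of the 6 and the L library of day 1 lay near both day 6 libraries. The ratio on day 1 was -1.03 (-1.13 to -0.94), on day 6 0.04 and on day 20 0.18 (0.09 to 0.28), and the fit over the 3 days gave -0.27 (SE 0.23, edgeR adjusted p = 0.843). Junb, a subunit of the AP-1 factor, stood at 27.5, 2.33 and 20.6 in C and at 16.9, 4.27 and 25.8 in L. Nr4a3, an orphan nuclear receptor, stood at 110, 64.7 and 88.8 in C and at 88.5, 72.4 and 115 in L. In both, the lower arm on day 1 was the higher arm on days 6 and 20, and the arms overlapped.

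Fos, the partner of the Jun proteins in AP-1, had an interval that held 0 on day 1 (-0.61 to 0.03) and a ratio of 0.74 (0.43 to 1.08) on day 20. On day 6 it stood at 0.0862 in C, below the limit that a count of 0 allows, and at 4.17 in L. Bdnf, a neurotrophin with activity-dependent promoters, was lower on all 3 days, with ratios of -0.25, -0.11 and -0.14. In the homogenates of day 6 the list had 18 of 24 above 0, with a median of 0.19, and Arc stood at 0.66 (SE 0.18, edgeR adjusted p = 0.467).

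**Figure D4:**
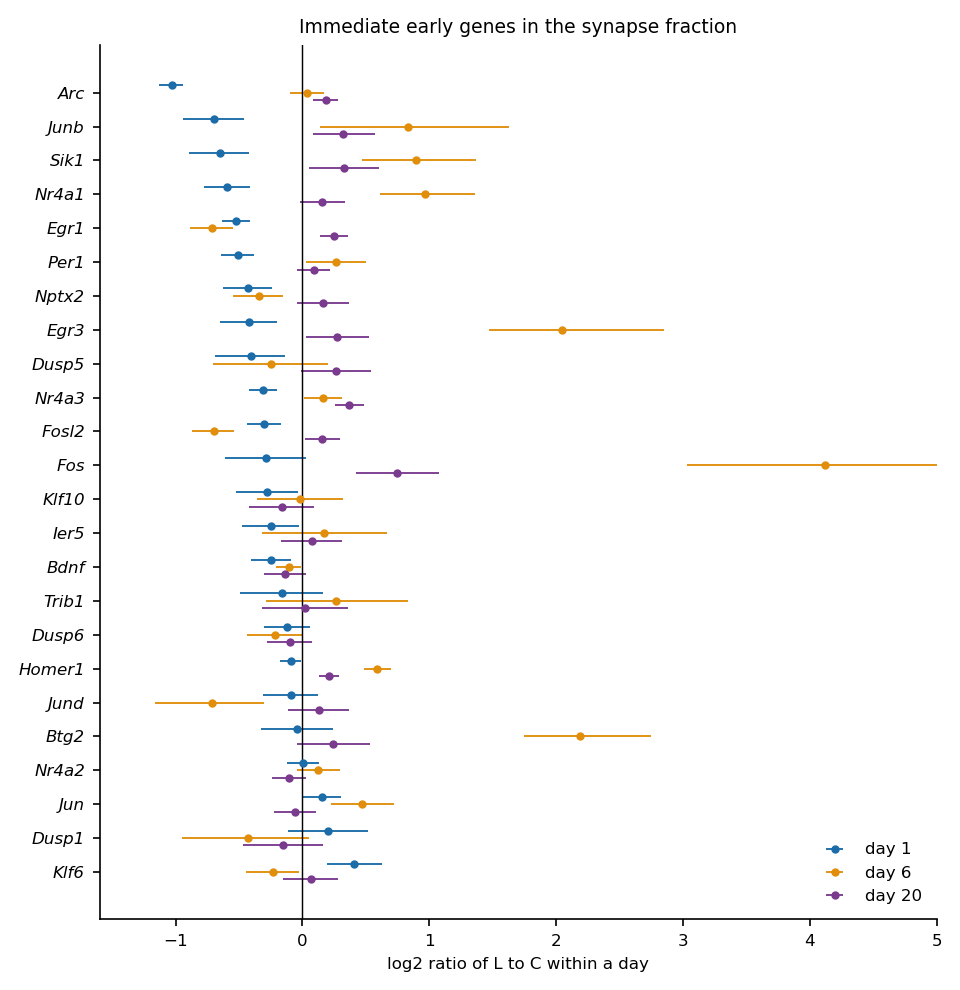
The log2 ratio of L to C (x axis) is shown for the 24 immediate early genes tested, ordered by their day 1 ratio; points are ratios, bars exact 95% intervals for counting error and colours the days. The interval of Fos on day 6 runs past the axis to 10.9. From Arc at -1.03, 20 of 24 points of day 1 lie left of 0 and 18 of 24 points of day 20 right of it.

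Because these genes lay on opposite sides of 0 on days 1 and 20, their promoters are shown for the letters that activity-dependent factors are known to bind. The window runs from 250 bases before to 50 bases after a transcript start, from RefSeq on GRCm38.p6, and 17 of the 24 genes have an entry. On both strands, the full cyclic AMP response element (TGACGTCA) stands in at least 1 promoter of 2 of the 17, Btg2 and Dusp1, against 1.79% of 32851 promoters, and its half-site TGACG, which overlaps the full element, in 11 of 17 against 20.8%. The AP-1 site TGACTCA stands in 0 of 17 (5.2% of all), and the serum response element core in 1 of 17, Dusp5 (1.63% of all). A gene counts if any of its entries holds the match, and Bdnf, Homer1 and Per1 have several entries. The shares are of single promoters, so counts and shares are not of the same unit. Of the 8 genes with opposite intervals 4 have an entry, and 3 of these hold the half-site. Capitals mark it, also where it lies on the other strand and reads CGTCA. The positions are chr8:84978699-84978998 on the minus strand for Junb, chr4:48045055-48045354 on the plus strand for Nr4a3 and chr13:93303507-93303806 on the plus strand for Homer1.
Junb: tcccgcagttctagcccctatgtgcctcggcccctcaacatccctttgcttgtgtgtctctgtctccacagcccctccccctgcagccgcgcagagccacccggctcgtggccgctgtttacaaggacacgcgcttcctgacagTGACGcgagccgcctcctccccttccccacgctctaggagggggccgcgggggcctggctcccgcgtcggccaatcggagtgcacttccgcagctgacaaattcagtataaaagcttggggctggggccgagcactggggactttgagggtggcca
Nr4a3: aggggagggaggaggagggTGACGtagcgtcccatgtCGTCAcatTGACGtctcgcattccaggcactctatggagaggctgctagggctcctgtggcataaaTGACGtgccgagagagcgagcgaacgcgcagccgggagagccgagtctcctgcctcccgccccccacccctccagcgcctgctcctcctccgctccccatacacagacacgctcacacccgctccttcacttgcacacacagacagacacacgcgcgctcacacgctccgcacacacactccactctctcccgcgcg
Homer1: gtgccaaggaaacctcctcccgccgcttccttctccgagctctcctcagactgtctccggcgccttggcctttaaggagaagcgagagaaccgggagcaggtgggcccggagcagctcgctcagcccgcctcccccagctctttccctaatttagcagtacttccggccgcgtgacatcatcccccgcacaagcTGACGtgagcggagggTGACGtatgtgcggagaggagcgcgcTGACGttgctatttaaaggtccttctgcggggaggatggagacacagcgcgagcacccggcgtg
Junb holds 1 match, Nr4a3 4 and Homer1 3 in this promoter and none in its other entry, and the fourth gene with an entry, Fosl2, holds none. A match is a description of the letters and shows neither binding nor its absence.

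Postsynaptic density genes, the scaffolds and kinases under the receptors, and glucocorticoid-induced genes also lay lower in L on day 1 and not on the later days. Of 35 postsynaptic density genes 30 lay below C on day 1 (median -0.17), 28 above on day 6 (median 0.17) and 18 above on day 20 (median 0.01). Without day 6, 14 of 35 (40%) lay below on both other days, against 27.7% of all genes. The scaffold Shank1 stood at 1751, 850 and 1413 in C and at 1289, 994 and 1348 in L, with L lower on day 1 at -0.44 and higher on day 6 at 0.23. Dlg4, which encodes PSD-95, stood at 741, 510 and 652 in C and at 627, 502 and 651 in L, so that its arms differed on day 1 and met on the other days. Camk2a had ratios of -0.40, 0.10 and 0.11. Of 17 glucocorticoid-induced genes, which the adrenal stress hormone raises, 15 lay below on day 1 (median -0.21) and 11 above on day 20 (median 0.11), and 10 of 17 were lower on day 1 and higher on day 20 (background 22.3%).

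Choroid plexus and meningeal genes went the other way, higher in L on day 1 and lower on day 20. Of 14 choroid plexus and ependymal genes 13 were above C on day 1 (median 0.20), 12 below on day 6 (median -0.38) and 14 below on day 20 (median -0.31), and 13 of 14 held the order higher on day 1 and lower on day 20, against 22.3% of all genes. Ttr stood at 3726, 4019 and 4588 in C and at 4247, 3245 and 3610 in L. All 14 fitted differences were below 0, and in the homogenates all 14 were above 0, with a median of 0.43. The summed level of the list was 7952, 11941 and 9503 in C and 9455, 9254 and 7923 in L. Of 19 meningeal and fibroblast genes 15 held the same order, with medians of 0.36, -0.21 and -0.24. Ptgds, the prostaglandin D synthase of meninges and choroid plexus, stood at 665, 1134 and 1374 in C and at 1077, 952 and 859 in L, and was among the 8 genes with the largest ratios in this order. The others were Prg4, Cdh1, Fmod, Sgpp2, Rbp4, Adamtsl3 and Idi1.

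In the order lower on day 1 and higher on day 20, the 2 largest were hormone genes of the pituitary, which is not part of the hippocampus. Prl, prolactin, stood at 27.1, 4.22 and 5.44 in C and at 7.97, 1.25 and 100 in L, with ratios of -1.75, -1.64 and 4.17. Gh, growth hormone, stood at 98.8, 7.07 and 35.7 in C and at 47.7, 11.9 and 400 in L, with ratios of -1.05, 0.74 and 3.48. The L library of day 20 was the highest of the 6 for both. In the homogenates of day 6 both were lower in L. There Gh had 254, 15 and 474 counts in C and 1, 0 and 4 in L. Prl had 128, 7 and 244 counts in C and 3, 0 and 0 in L. The other 6 genes named as lower on day 1 and higher on day 20 were Sema5b, Pdk4, Crispld1, Syna, Fbxl12 and Lrrc10b. Their day 20 ratios were 0.40 to 0.57. Alb, the albumin gene of the liver, was at 0, 136 and 0.0777 in C and at 0.0759, 22.4 and 0 in L, so that it was above the limit of a count of 0 on day 6 alone. Its fitted difference of -2.50 (SE 0.43, edgeR adjusted p = 0.843) rested on that pair. The part of other tissues in these values was not tested.

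**Figure D5:**
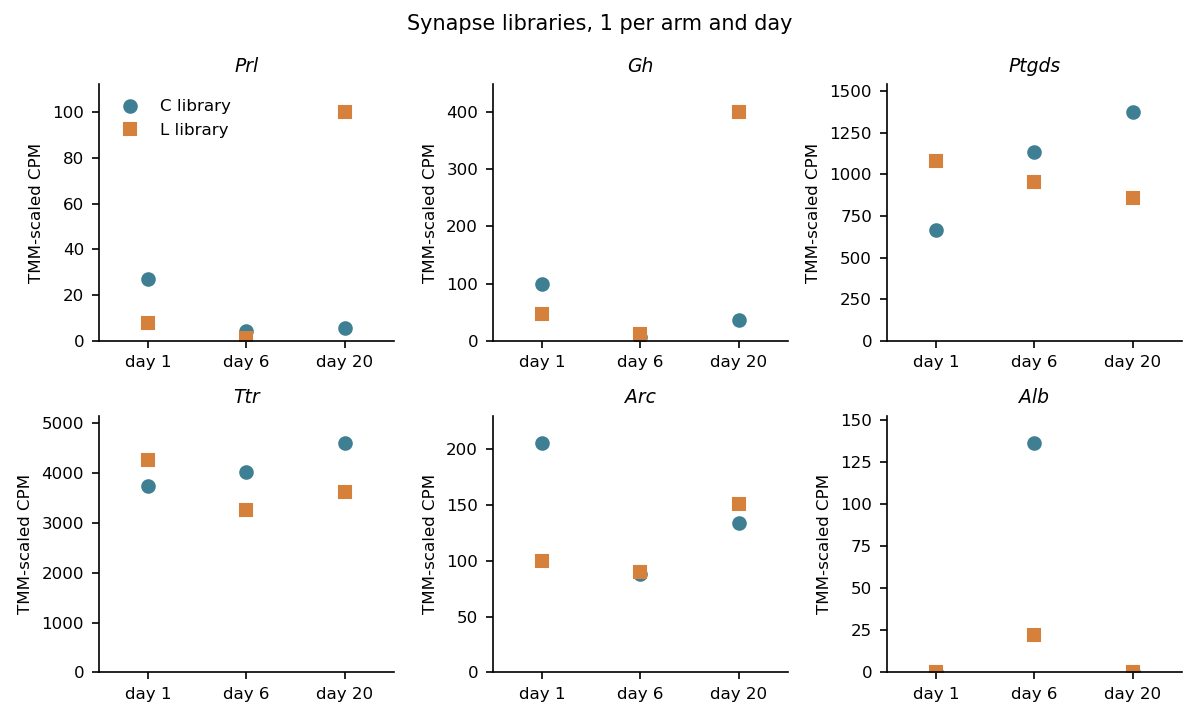
TMM-scaled CPM (y axis) of 6 genes in the 3 C libraries (circles) and the 3 L libraries (squares) by day. Prl at 100 and Gh at 400 are highest in the L library of day 20, Alb is above the limit of a count of 0 on day 6 alone, and in Ptgds, Ttr and Arc the order of the arms differs between day 1 and day 20.

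Counts of several further lists moved with the scaling, and so did the shares of all genes. With TMM factors 13.2% of all genes lay above C on all 3 days and 15.7% below. These shares were 10.8% and 18.8% with RLE factors, and 17.8% and 10.5% with library totals alone. Of 16 tested m6A genes, which write, erase and read the methyl mark on mRNA, 2 lay above (Wtap and Cbll1) and 1 below (Rbm15b) on all 3 days (1 and 2 with RLE factors), and the writer Mettl3 stood at 12, 3.79 and 13.4 in C and at 13.4, 12 and 11.2 in L, with the arms overlapping. RNA granule and local translation genes had 6 of 29 above on all 3 days (13.2% of all genes) and 1 below, among the 6 Cpeb4, Stau1 and Elavl4, but 4 above and 3 below with RLE factors. On both day 1 and day 20, 14 of 29 (48.3%) lay above, against 27.7% of all genes. Spine actin regulators had 7 of 30 above (23.3%) and 3 below (10%). With library totals alone they had 11 above (36.7%) and 1 below (3.33%). Dendritically localized mRNAs had 7 of 25 below (28%) and 3 above (12%), with Map2 at ratios of 0.00, 0.21 and 0.06. With library totals alone this list had 3 below (12%) and 5 above (20%). Nuclear-encoded oxidative phosphorylation genes had 14 of 69 below (20.3%) and 4 above (5.8%). With library totals alone they had 11 below (15.9%) and 10 above (14.5%). The largest median of a list, 0.23, was that of 13 nuclear-retained and intron-rich transcripts, with day medians of 0.10, 0.38 and -0.08 and a median of 0.05 without the day 6 pair. Astrocyte markers, which are abundant here, had 4 of 20 below (20%) and 3 above (15%) on all 3 days (5 and 1 with RLE factors). CA1 markers had 4 of 13 below (30.8%) and none above.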

How the data were processed

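Messenger RNA was measured by RNA sequencing of total RNA depleted of ribosomal RNA, with strand-specific libraries, per the labels' protocols. The submitters' processing notes list, on the mouse build mm10, the trimmer cutadapt 1.9.3, the aligner HISAT2 2.0.4, the counter HTSeq 0.9.1 and the package edgeR. The sources used here do not state the annotation release, the strand setting or a filter on genes. The authors deposited unnormalized counts of reads for each gene in 4 tables, of which 3 hold a synapse pair and 1 the homogenates. Genes with near-identical copies and overlapping antisense genes are uncertain.

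Counts of the 3 synapse tables were joined by gene identifier. Those whose mean reached 10 CPM, relative to the full column totals, were tested by the edgeR 4.0.16 quasi-likelihood test (TMM, robust fit, day as a block) in R 4.3.3, with Benjamini-Hochberg adjustment and a threshold of 0.05. Day is the pairing that the titles give. As a check, deviations from the arm means of libraries of the same day correlated at 0.69, 0.747 and 0.655, and those of day 1 with day 20 at 0.694 to 0.697, so that day 6 sets this correlation. Ratios within a day used a prior count of 2. The homogenates (filterByExpr) and the fraction by arm term over 12 libraries were fitted in the same way, the latter assuming 1 spread for both fractions. DESeq2 1.42.0, limma-voom (limma 3.58.1), other scalings and floors, and each library and day left out were the alternatives. The counts of list members under other scalings were added after seeing the data. The scripts were tested on simulated data.

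The synapse members, the 32 gene lists and the rules were chosen with earlier results of these data known. The text names, in each direction, 12 genes with L on 1 side of C on all 3 days, taken in order of p, up to 3 genes of each list by p, 18 genes followed throughout where tested, and up to 8 genes in each order of opposite signs on days 1 and 20; predicted genes, pseudogenes and histones are not named by the rule. Other list members named for their day-wise values, and Flt1, Gm21685, Zxdb and Idi1 as calls, were chosen after their values were seen. Coordinates are those of GENCODE M21 (GRCm38, called mm10), matched by Ensembl identifier for 142 of 143 named genes. Reading of promoters used RefSeq sequences. Some list members are not reported here by name.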

Additional observations from a re-analysis of the deposited data

Results flagged for a closer look

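For 2 genes the arms lay more than 2-fold apart in opposite directions on days 1 and 20. The log2 ratio of L to C of the prolactin gene Prl was 5.91 higher on day 20 than on day 1, and that of the growth hormone gene Gh was 4.53 higher. With 1 library per arm and day, this difference between days was not tested.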

How the results depend on the processing

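Of 966 values for 46 named genes under 21 settings, 958 kept their direction and side of the threshold. The 5 that newly passed and the 3 that changed sign were all those of Alb. These 46 are the genes named for direction and p, and list genes with an unadjusted p under 0.05 in edgeR. Their stability was therefore largely set by that choice. Other named genes, Prl and Idi1 among them, are not part of the 46. Alb stood between -2.61 and 0.11 with 1 library left out, its sign changing without either day 6 library, and at 0.11 without the day 6 pair. The number of genes called in the synapse fraction, 0, became 1 to 2 with 1 library left out, 1 without the day 1 pair (Alb, edgeR adjusted p = 0.0101) and 1 without the day 6 pair (Gm21685, fitted difference -2.64, edgeR adjusted p = 0.0293, a gene with near-identical copies). The calls with 1 library left out were Gm21685 without a day 6 library, Alb without a day 1 library, and Alb with Prl or with Idi1 without a day 20 library of C or L. Those fits assume that the lone library of a day varies like the others. The number at an unadjusted p under 0.05, 211, was 465 to 646 with 1 library left out, 353 without the day 1 pair, 642 without the day 6 pair and 662 with library weights in limma-voom (0.278 to 0.296 for day 6 against 1.77 to 1.98). With no replicate block, that is without day in the model, it was 6. In the homogenates 13 genes were called by DESeq2, 1 (Gh) with a replicate block and 0 to 2 with 1 library left out (Pomc and Gh without C replicate 2), and 1 gene (Alb) differed between fractions with a replicate block. The homogenate headings share a code between the arms, which the labels do not explain, and the deviations of libraries with the same number correlated at 0.00928, 0.254 and 0.179, number 1 of C correlating more with number 3 of L, so that the block is given as an alternative. At a floor of 20 CPM, genes past 2-fold numbered 5 on day 1, 300 on day 6 and 2 on day 20. Of 224 list medians under other settings 205 stayed within the spread of the day medians and 19 moved, among them the adhesion list to -0.12 without day 6 and -0.04 with library totals and the glutamate receptor list to -0.0044 with library totals. The causes were not tested. With 1 library per arm and day, days cannot be compared by a test, and the fits over days rest on 3 pairs.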

Other observations

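Among genes outside the naming rule, Zxdb, picked out after its values were seen, had every L library below every C library, at 31.5, 24 and 29.5 scaled CPM in C and 17.2, 21.3 and 17.9 in L on days 1, 6 and 20. Its ratios were -0.86, -0.17 and -0.71, and with days 1 and 20 alone its fitted difference was -0.80 (SE 0.12, edgeR adjusted p = 0.598). Ndufa12, a complex I subunit picked out in the same way, stood at 49.8, 29.6 and 36 in C and 30.5, 41.7 and 24 in L, lower in L on days 1 and 20 and higher on day 6. Gm21685, whose identifier the annotation names Entpd4b, stood at 23.7, 19.4 and 16.3 in C and 3.11, 34.9 and 3.27 in L, with the same order of days.

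The homogenate L library 1 held 21975 counts of Alb and the other 5 homogenates 0, while among the synapse libraries the 2 of day 6 held 1575 (C) and 215 (L) and the other 4 at most 1.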
